A study of Mus musculus with 8 samples.

Results

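The regions described here are accessible chromatin regions of mouse spermatogonia that carry a CpG island but do not lie at the start of a gene. Peaks of 8 ATAC-seq libraries, an assay in which a transposase cuts open chromatin, were merged where they overlapped by at least 1 bp. A merged region was kept where at least 1 of its peaks was assigned a CpG island in the deposited table and none of its peaks had a summit within 1000 bp of a gene start. This gave 4074 of the 87144 merged regions (4.68%). The other regions were 11706 with a CpG island at a gene start, 4881 without one at a gene start and 66483 without one away from gene starts.

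The study followed spermatogonia as they differentiated in response to retinoic acid (RA). Neonatal mice were given WIN 18,446, an inhibitor of RA synthesis, for 7 days, which holds spermatogonia in the undifferentiated state, and RA was then given to start differentiation in synchrony. Germ cells were sorted by eGFP, which the transgene places under the Piwil2 promoter, at 18, 48 and 120 h post-RA, and at 0 h from mice given WIN 18,446 without RA. All 8 libraries, 2 per timepoint, came from this line. Each came from the testes of 1 mouse and, per the labels, from 100000 cells of a C57BL/6 x 129s4/SvJae background, whereas the methods of the study give another cross and fewer cells. Each 0 h library had 69089 or 72215 peaks and each later library from 24643 to 39551, after the authors had reduced all libraries to 1 number of tags. Read numbers were not used, so the depth behind each peak is unknown. A peak at the gene start was found in all 8 libraries for 9 of 10 germ cell markers. Of 6 Sertoli cell markers, 5 had one in each 0 h library and from 1 to 3 in each later library, with Wt1 in all 8 and Fshr in none. Leydig cell markers had at most 1 of 6 in a library, peritubular and vascular markers from 2 to 3 of 5, and blood cell markers at most 2 of 4, none of these later than 0 h. The part of other cells in the results below was not tested.

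CpG islands are stretches of DNA in which the CpG dinucleotide, elsewhere depleted by the deamination of methylated cytosine, has been kept. Most lie at promoters, stay free of DNA methylation and hold nucleosomes that are easily displaced. Those away from annotated gene starts, often called orphan islands, include alternative promoters, promoters of non-coding RNAs, imprinting control regions, enhancers and the exons of developmental genes, and a larger share of them becomes methylated in a manner that depends on the cell type.

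Windows of 200 bases around the highest summit show what such regions look like. They were read from the GRCm38 (mm10) genome for the highest regions, for the largest relative changes by 120 h, for regions found at 0 h or at 120 h only, and for the imprinted gene list, and each CpG is in capitals.
Region without an assigned gene, 1 of the 5 highest, chr19:61266909-61267108, plus strand: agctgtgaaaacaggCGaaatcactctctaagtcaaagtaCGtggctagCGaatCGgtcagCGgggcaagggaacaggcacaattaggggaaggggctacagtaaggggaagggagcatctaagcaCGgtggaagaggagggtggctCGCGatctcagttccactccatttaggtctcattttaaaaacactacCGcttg
Clec11a, 1 of the 5 highest, chr7:44304957-44305156, plus strand: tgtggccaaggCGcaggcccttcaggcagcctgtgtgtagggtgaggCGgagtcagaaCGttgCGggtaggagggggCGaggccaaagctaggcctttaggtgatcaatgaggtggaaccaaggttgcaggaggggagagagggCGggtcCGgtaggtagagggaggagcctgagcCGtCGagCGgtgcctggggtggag
Region without an assigned gene, largest rise by 120 h, chr10:80471133-80471332, plus strand: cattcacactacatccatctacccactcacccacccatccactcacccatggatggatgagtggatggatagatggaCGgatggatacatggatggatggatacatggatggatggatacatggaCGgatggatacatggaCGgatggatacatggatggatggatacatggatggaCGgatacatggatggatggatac
Cdc14a, rise by 120 h, chr3:116347677-116347876, plus strand: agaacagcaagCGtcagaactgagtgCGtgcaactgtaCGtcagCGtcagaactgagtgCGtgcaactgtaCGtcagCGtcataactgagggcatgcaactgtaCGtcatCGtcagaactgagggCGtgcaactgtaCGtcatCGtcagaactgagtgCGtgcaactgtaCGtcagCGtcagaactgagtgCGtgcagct
Region without an assigned gene, largest fall by 120 h, chr6:136470333-136470532, plus strand: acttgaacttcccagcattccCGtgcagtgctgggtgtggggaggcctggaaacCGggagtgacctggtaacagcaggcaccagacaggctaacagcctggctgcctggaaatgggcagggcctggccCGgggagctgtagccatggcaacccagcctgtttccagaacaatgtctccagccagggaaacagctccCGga
Region without an assigned gene, fall by 120 h, chr1:34930621-34930820, plus strand: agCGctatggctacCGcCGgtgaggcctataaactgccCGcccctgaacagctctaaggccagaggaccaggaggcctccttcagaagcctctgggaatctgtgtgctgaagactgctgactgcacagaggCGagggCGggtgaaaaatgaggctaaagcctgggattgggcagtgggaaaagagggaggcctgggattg
Gm15417, 0 h only, chr3:89396509-89396708, plus strand: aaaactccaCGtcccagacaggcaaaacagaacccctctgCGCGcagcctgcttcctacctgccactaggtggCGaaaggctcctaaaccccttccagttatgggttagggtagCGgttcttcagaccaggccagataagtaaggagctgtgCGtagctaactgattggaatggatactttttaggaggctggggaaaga
Hmg20b, 0 h only, chr10:81346781-81346980, plus strand: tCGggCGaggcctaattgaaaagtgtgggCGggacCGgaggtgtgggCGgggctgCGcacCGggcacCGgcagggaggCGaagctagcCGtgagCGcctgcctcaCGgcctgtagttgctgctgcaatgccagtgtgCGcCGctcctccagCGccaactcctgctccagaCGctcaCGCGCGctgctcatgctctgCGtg
Cilp2, 120 h only, chr8:69883645-69883844, plus strand: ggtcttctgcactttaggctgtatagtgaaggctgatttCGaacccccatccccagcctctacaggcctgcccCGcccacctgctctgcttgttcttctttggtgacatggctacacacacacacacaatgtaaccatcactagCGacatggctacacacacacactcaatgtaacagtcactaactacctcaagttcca
Stra8, 120 h only, chr6:34921981-34922180, plus strand: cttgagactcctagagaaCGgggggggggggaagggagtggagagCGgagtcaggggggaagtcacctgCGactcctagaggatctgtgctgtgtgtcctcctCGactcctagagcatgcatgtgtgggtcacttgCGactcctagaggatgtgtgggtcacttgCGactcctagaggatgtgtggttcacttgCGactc
Cdh15, imprinted gene list, chr8:122864765-122864964, plus strand: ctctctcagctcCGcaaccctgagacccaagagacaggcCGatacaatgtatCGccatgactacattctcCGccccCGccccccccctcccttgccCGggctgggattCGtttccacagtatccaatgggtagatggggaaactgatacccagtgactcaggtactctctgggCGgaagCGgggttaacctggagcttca

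The windows shown held between 3 and 20 CpGs. In the Hmg20b window, from a component of a histone demethylase complex, there were 20 CpGs and a GC content of 68.5%. The Cilp2 window, from an intron of a cartilage matrix gene, held 3 CpGs and had a GC content of 50.5%. The table assigns islands to whole peaks, so the island need not cover the summit. Of the windows shown, 3 were made of short units repeated in tandem: 56.1% of the 12-letter words in the window without a gene on chromosome 10 occurred more than once within it, as did 75.1% in the Cdc14a window and 32.3% in the Stra8 window.

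Over all 4074 regions the median window had a GC content of 65.0% and held 15 CpGs, with the middle 50% of regions between 11 and 20. CpG island regions at gene starts had medians of 66.5% and 18 CpGs, and regions without an island away from starts had 50.5% and 3. The ratio of observed to expected CpGs had medians of 0.74, 0.83 and 0.26 in the same order. With a GC content of at least 50% and a ratio of at least 0.6 as the criteria of an island, 72.8% of the windows met both, beside 84.7% at gene starts and 6.20% away from starts without an island. The plot of CpG content shows the distribution for each class. The island label was part of the rule, so these values describe the regions and test nothing.

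**Figure D1:**
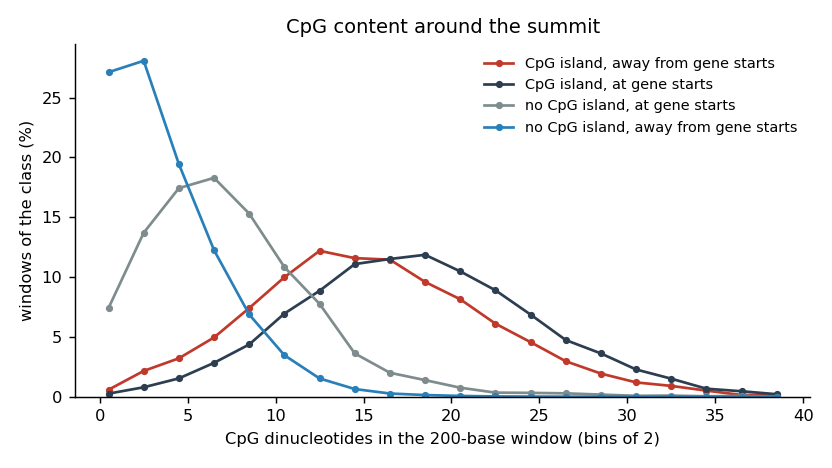
Share of the 200-base windows of each class (y axis, %) against the number of CpG dinucleotides in the window (x axis, bins of 2), with 1 line per class of region. Regions with a CpG island away from gene starts have a median of 15 CpGs, nearer to the 18 of islands at gene starts than to the 3 of regions away from starts without an island.

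Letters of transcription factor motifs were searched on both strands of the windows, as a description only. GGGGCGGGG, the core bound by SP and KLF factors, was in 9.08% of the windows, beside 16.9% of CpG island windows at gene starts, 1.72% of windows without an island away from starts and 4.35% of all windows. CCGGAAG, bound by ETS factors, was in 5.01%, 13.3%, 2.89% and 4.57% in the same order. TGCCGC, the methylation-dependent site of the imprinting factor ZFP57, was in 17.2%, 19.1%, 4.56% and 7.36%. CAGGGGGC, part of the CTCF site, was in 4.20%, 3.84%, 2.29% and 2.62%. ATTGTT, bound by SOX factors, was in 2.38%, 2.20%, 13.8% and 11.2%. GATTGG, bound by NFY, was in 8.35%, 16.4%, 9.97% and 11%. In the windows of regions found in all 8 libraries, GGGGCGGGG was in 16.6% and GATTGG in 16.4%, whereas both were scarcer, at 4.28% and 6.03%, in regions found in both 0 h libraries and in no later one. CCGGAAG was also scarcer there (8.54% and 4.28%), but TGCCGC was not (16.8% and 17.3%). An annotated transcript start lay within 1000 bp for 60.9% of the former and for 39.6% of all those counted at 0 h only. Its part was not tested, and this split was not taken over all regions. A direct repeat of AGGTCA at a spacing of 5 bases, a form bound by RA receptors, was in 0 of the 4074 windows and in 0.0138% of all windows. Only these exact letters and this spacing were searched. At 12 of 87144 windows the repeat is too rare for the 0 to tell of RA receptor sites in these regions.

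The GENCODE annotation placed the highest summit in a coding exon in 1083 regions (26.6%, beside 5.64% of all regions), in an intron in 1312 (32.2%), between genes in 939 (23.0%), in a UTR in 391 (9.60%) and in an exon of a non-coding transcript in 349 (8.57%). By the table's own gene starts, 26.2% lay more than 1000 bp and up to 3000 bp from a start, 27.4% up to 10000 bp, 23.5% up to 100000 bp and 5.25% farther, and 17.6% had no assigned gene. The fuller GENCODE annotation held a transcript start within 1000 bp of the summit for 1903 of the 4074 (46.7%, beside 28.5% of all regions). Among these, the nearest start was that of a protein-coding transcript for 890, of a processed transcript for 268, of a retained-intron transcript for 237, of a processed pseudogene for 144 and of a lincRNA for 124. Away from the table's gene starts therefore does not mean away from every annotated transcript start.

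The rule itself has an edge at 1000 bp. Of the 500 regions with a summit up to 1500 bp from a start, 125 (25%) had a peak in all 8 libraries. Of the 1125 CpG island regions just outside the rule, with the nearest summit more than 500 bp and up to 1000 bp from a start, 225 did. Nearer than that the share was 73.0% of 10581.

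Peaks were found at the most of these islands without RA, in the libraries that also had the most peaks in all. With an equal number of the highest peaks taken per library the 0 h count was far lower, as given in the last section. A peak was found in 3500 and 3689 of the 4074 regions in the 0 h libraries, in 1646 and 2179 by 18 h, in 1840 and 2147 by 48 h, and in 2568 and 1869 by 120 h. Both 0 h libraries lay above all 6 later ones, and the 120 h libraries differed more from each other than any other pair of replicates. A region was counted at a timepoint where both libraries had a peak. This gave 3280 regions without RA, then 1499, 1601 and 1766.

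Because each class of region lost peaks after RA, the share of each library's peaks that fell in these regions was also taken. It was 5.04% and 5.59% without RA, 6.17% and 6.84% by 18 h, 7.65% and 6.97% by 48 h, and 6.92% and 8.04% by 120 h. Each later library lay above both 0 h libraries. Means ± SD of the 2 libraries were 5.31% ± 0.39 at the start, then 6.5% ± 0.48, 7.31% ± 0.48 and 7.48% ± 0.79. The 6 libraries after RA exceeded those of 0 h by 1.78 percentage points (p = 0.0714 by a two-sided exact permutation test of 2 against 6), which is the smallest p this design allows with the smaller tail doubled. Ranked by absolute difference the exact permutation p was 0.0357, n = 2 against 6. This share was not taken for the other classes. Islands at gene starts made up 10892 of the 59063 regions counted at 0 h and 9172 of the 22112 counted at 120 h. Their part rose too, so a rise is not particular to the islands away from starts.

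Of the 3280, 1489 (45.4%) were also counted by 18 h, 1590 (48.5%) by 48 h and 1712 (52.2%) by 120 h. Over all regions counted at 0 h, the shares were 39.9%, 36.8% and 34.3%. For CpG island regions at gene starts they were 78.0%, 80.6% and 83.5%, and for regions without an island away from starts 29.2%, 24% and 19.7%. In single libraries, the share of the 3280 with a peak was 49.0% and 64.3% by 18 h, 55.1% and 62.2% by 48 h, and 73.0% and 54.2% by 120 h. For regions without an island away from starts it was 33.7% and 41.6%, 27.4% and 38.7%, and 42.0% and 20.6%. In each of the 6 later libraries the island regions kept the larger share. The shares of both kinds moved when a single library was left out. For the islands they went from 45.4% to 64.3% without 18 h replicate 1, from 48.5% to 62.2% without 48 h replicate 1 and from 52.2% to 73.0% without 120 h replicate 2. For the regions without an island they went, in the same order, from 29.2% to 41.6%, from 24% to 38.7% and from 19.7% to 42.0%.

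**Figure D2:**
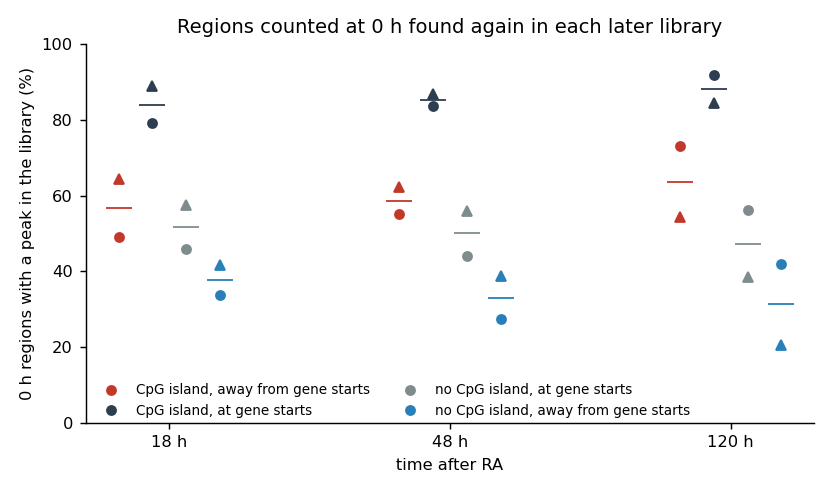
Percent of the regions counted at 0 h that had a peak in each later library (y axis) by time post-RA (x axis). Circles are replicate 1, triangles replicate 2 and bars the mean of both, and colours are the 4 classes of region. CpG island regions away from gene starts lie between 49.0% and 73.0%, below islands at gene starts and above both classes without an island.

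Peaks that were high at 0 h were found again more often in every class, so regions were also compared within 3 classes of equal size of 0 h summit value, the height of the signal at the peak's highest point. The island regions had a median 0 h value of 109, beside 90.3 for all regions, 220 for islands at gene starts and 75 for regions without an island away from starts. In the highest class, with values without RA from 130.02 to 1756, 82.6% of the 1335 island regions were counted at 18 h, beside 82.7% of the 9126 regions without an island away from starts. At 48 h these shares were 85.1% and 71.6%. By 120 h they were 84.8% and 54.7%. In the middle class, from 66.5 to 130, they were 26.7% and 26.2% by 18 h, and 38.5% and 16.1% by 120 h. In the lowest class they were 5.18% and 3.64% by 18 h, and 11.2% and 4.40% by 120 h. The classes match heights in part only, since in the highest class the median 0 h value was 218 for the island regions and 186 for the other distal regions. The shares of both kinds were thus close at 18 h in the middle and highest classes, and those of the islands were the larger at 120 h in all 3. Over all regions the shares in the highest class were 87.9% at 18 h, 83.0% at 48 h and 74.8% at 120 h. In the middle class they were 28.1% at 18 h and 23.0% at 120 h, and in the lowest 3.85% and 5.24%. At 18 h the islands thus lay below all regions in the highest and middle classes, and at 120 h above them in all 3.

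The 120 h contrast differed in size between its libraries. In the highest class, 120 h replicate 1 had a peak in 95.6% of the island regions and 86.4% of the regions without one, and 120 h replicate 2 in 85.2% and 55.2%. Across all merged regions with a peak, the median GC content was 54.5% in 120 h replicate 1 and 59.0% in 120 h replicate 2, beside 53.0% and 54.0% at 0 h, and the part of this in the contrast was not tested. With an equal number of the highest peaks taken from each library, the shares at 120 h were 97.6% and 82.8%.

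**Figure D3:**
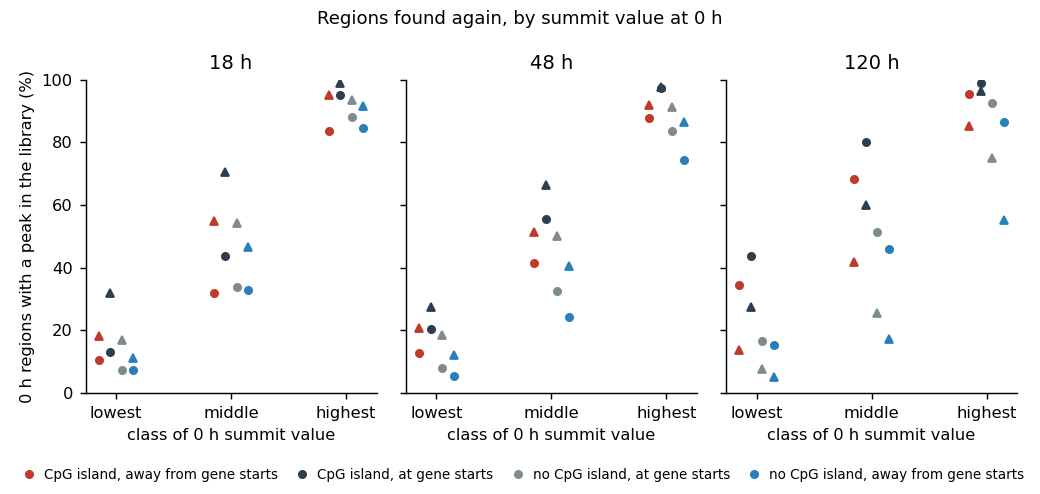
Percent of regions counted at 0 h that had a peak in each later library (y axis), in 3 classes of equal size of 0 h summit value (x axis), with a panel per timepoint. Circles are replicate 1 and triangles replicate 2. In the highest class, CpG island regions away from starts and regions without an island away from starts overlap at 18 h (83.5% and 95.0% against 84.7% and 91.7%) and stand apart at 120 h (95.6% and 85.2% against 86.4% and 55.2%).

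Of the 3347 regions counted at 1 timepoint or more, 1223 (36.5%) were counted at 0 h only, beside 49.8% of all regions, and 514 of them lacked a peak in every later library. Without 120 h replicate 2, that is with 120 h replicate 1 alone to count 120 h, 789 were at 0 h only. A peak in all 8 libraries was found in 1148 of the 4074 (28.2%), beside 17.8% of all regions. A further 256 (7.65% of those counted, beside 3.77%) were counted at 0 h and again at 120 h but at neither timepoint between. This count was 138 without 18 h replicate 1, 166 without 48 h replicate 1 and 690 without 120 h replicate 2. At 120 h only there were 48 (1.43%, beside 2.49% of all regions) and a further 8 and 4 were found at 48 h alone and 18 h alone. The 48 became 27 without 0 h replicate 1, 80 without 120 h replicate 1 and 163 without 120 h replicate 2. The remaining 727 were counted at no timepoint, having a peak in a single library of 1 or more timepoints.

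Place in the gene went along with how long a region was found. Of the 820 regions in coding exons counted at 0 h, 33.4% were also counted at 18 h and 39.8% at 120 h, and 171 of the 1083 (15.8%) had a peak in all 8 libraries. For the 805 between genes the shares were 54.8% and 60.5%, with 364 of the 939 (38.8%) in all 8. Over all merged regions the shares in coding exons and between genes were 34.0% and 38.6% at 18 h, and 33.7% and 34.5% at 48 h. Of these regions 15.3% and 17.2% had a peak in all 8 libraries. At 120 h alone their order was the reverse, 35.5% in coding exons and 31.8% between genes. Without RA the island regions in coding exons had the lower median, 91.3 beside 127 between genes. Of island regions near a GENCODE transcript start, 60.8% of those counted at 0 h were counted at 120 h and 36.7% had a peak in all 8 libraries. Without such a start the shares were 44.0% and 20.7%. Over all merged regions they were 60.8% and 41.3% near a start, and 20.5% and 8.45% without one. Near a start the island regions were thus not above all regions.

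Changes in height could be fitted in the 1148 regions found in every library, 28.2% of the 4074. For each library the tallest summit within a region was put on a log2 scale and compared with limma across all 15536 regions of this kind. A region that loses its peak has no height and is not in these counts. At 18 h, 1085 of the 1148 were lower than at 0 h and 1 was higher at an adjusted p under 0.05 from limma, beside 92.3% and 0.296% of all regions, with a median of -1.25 on the log2 scale (-1.23 in all regions). Without 0 h replicate 2 there were 612 lower, and without 18 h replicate 1, 541. At 48 h, 1092 were lower and 0 higher, the latter also at an unadjusted p, beside 93.3% and 0.328%, with a median of -1.37 (-1.36). At 120 h, 576 were lower and 3 higher, beside 44.8% and 0.882%, with a median of -0.85 (-0.75). Without 0 h replicate 2, 230 were lower at 120 h, and without 120 h replicate 2, 283. The higher regions at 120 h numbered 6 without 120 h replicate 2 and 1 without either 0 h library or 120 h replicate 1.

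Between 18 h and 48 h few heights passed the test, with 1 region lower and 0 higher by limma (12 and 1 at an unadjusted p under 0.05), beside 0.00644% and 0% of all regions. From 48 h to 120 h, 207 rose and 0 fell by limma (381 and 2 at an unadjusted p under 0.05), beside 23.7% and 0.18%. The median rise was 0.50 on the log2 scale. This rise rested on single libraries: 1 region rose without 48 h replicate 1, 13 without 48 h replicate 2, 23 without 120 h replicate 1 and 505 without 120 h replicate 2.

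Since the fall was shared by nearly all regions, heights were also taken relative to the median region of each library. On this scale the median region of the fit moved by 0.03 or less at 18 and 48 h and by 0.14 at 120 h. At 18 h, 0 island regions were lower and 6 higher by limma (63 and 78 at an unadjusted p under 0.05), beside 0.225% and 1.25% of all regions. The 6 became between 1 and 3 without 0 h replicate 1 or any 1 library of 18 or 48 h. At 48 h, 13 were lower and 26 higher, beside 1.51% and 3.26%. Leaving out any 1 library of 0, 18 or 48 h brought the lower count to between 0 and 6, and any of 0 or 48 h the higher count to between 5 and 14. At 120 h, 158 (13.8%) were lower and 175 (15.2%) higher, beside 15.8% and 23% of all regions, and the median was 0.04 on the log2 scale. CpG island regions at gene starts had a median of 0.36, with 31.9% higher and 5.88% lower, and regions without an island away from starts had -0.25, with 13.5% higher and 28.4% lower. On this scale the median of the distal islands lay between both. Without 0 h replicate 1, 104 were lower and 76 higher, without 0 h replicate 2, 96 were lower, and without 120 h replicate 2, 95 were lower and 47 higher. From 18 h to 48 h, 0 were lower and 0 higher by limma on this scale (33 and 25 at an unadjusted p under 0.05), as were 0% and 0% of all regions. From 48 h to 120 h, 69 were lower and 79 higher, beside 7.45% and 9.47%. Without 48 h replicate 2 both counts were 0, without 48 h replicate 1 they were 8 and 5, without 120 h replicate 1, 31 were lower, and without 120 h replicate 2 they were 11 and 3.

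GC content moved with the libraries here too. Across the 15536 regions, log2 height rose with GC content by 0.05 and 0.20 per 10 percentage points without RA and by 0.17 and 0.36 in the 120 h libraries. With the GC trend of each library removed, 255 of the 1148 were lower at 120 h than at 0 h and 144 higher, and the median became -0.12, so the balance between rises and falls turned with this choice. The order of the classes turned too: islands at gene starts then had a median of 0.20 with 25.4% higher, and regions without an island away from starts -0.10 with 20% higher, so that the distal islands, with 12.5% higher, lay below both. The plot of changes gives all 3 scales.

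**Figure D4:**
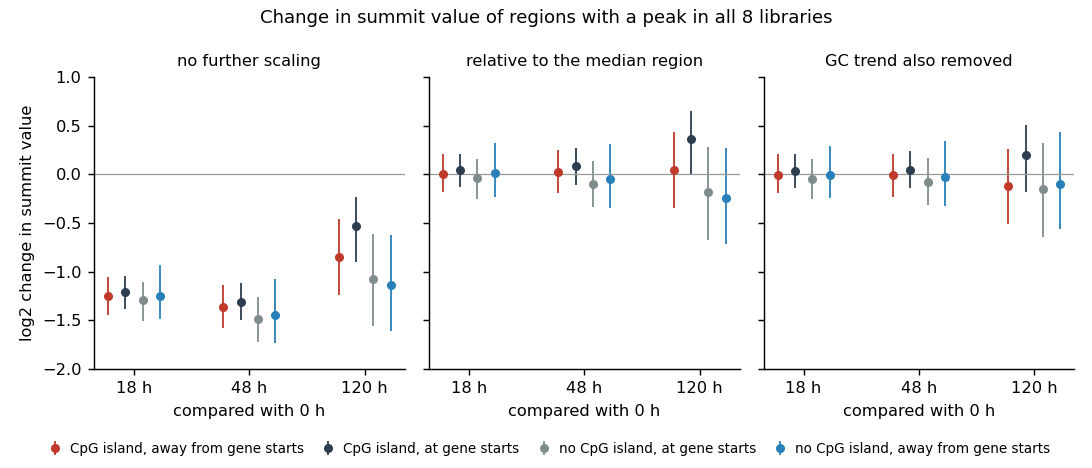
Log2 change in summit value compared with 0 h (y axis) at 18, 48 and 120 h (x axis) in regions with a peak in all 8 libraries, for no further scaling, relative to the median region, and with the GC trend also removed. Points are medians over the regions of a class and lines span the middle 50% of regions. At 120 h the 1148 CpG island regions away from starts have medians of -0.85, 0.04 and -0.12 on the 3 scales.

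Among these regions, the 5 highest were chosen by their lowest value over the 8 libraries. The region without an assigned gene on chromosome 19 (61266415 to 61267298, intergenic) had values of 1538 and 1790 without RA, 738 and 826 by 18 h, 710 and 886 by 48 h, and 622 and 612 by 120 h. It stayed high throughout and was lowest at 120 h, with a relative log2 change of -0.54 (SE 0.23, adjusted p = 0.0753 from limma) that passed the threshold without 120 h replicate 2 (-0.85). The Clec11a region (chromosome 7, 44304631 to 44305776), in an intron of a secreted growth factor of the lectin family, had 1390 and 1883 without RA, 663 and 1033 by 18 h, 512 and 742 by 48 h, and 1613 and 1239 by 120 h. It fell after RA and at 120 h overlapped its 0 h values. The Sin3a region (chromosome 9, 57075710 to 57076499), in an intron of the scaffold of a histone deacetylase complex and 20 bp from the GENCODE start of 2700012I20Rik, had 1401 and 1234, 469 and 682, 474 and 462, and 1240 and 861 in the same order. Its relative change at 120 h, 0.54, missed the threshold (adjusted p = 0.0639 from limma) and passed it without 0 h replicate 1 (0.77).

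The Gatad2b region (chromosome 3, 90292677 to 90293925) had no gene in the table but lay 89 bp from a GENCODE start of Gatad2b, a subunit of a nucleosome remodelling complex. Its values were 1063 and 1306 without RA, 497 and 698 by 18 h, 423 and 532 by 48 h, and 1178 and 804 by 120 h. The Iffo2 region (chromosome 4, 139574093 to 139574867) lay 43916 bp inside the table's gene and 191 bp from another GENCODE start of Iffo2, with 833 and 1310, 409 and 514, 404 and 454, and 1063 and 773. Relative to the median region, Clec11a, Gatad2b and Iffo2 rose by 120 h, with log2 changes of 0.70 (SE 0.21, adjusted p = 0.0214), 0.61 (SE 0.19, adjusted p = 0.0234) and 0.69 (SE 0.21, adjusted p = 0.0198) from limma. Without further scaling their changes were -0.19, -0.28 and -0.20, none past the threshold. None of the relative rises passed without 0 h replicate 1 (0.61, 0.60 and 0.49 in the same order) or without 120 h replicate 2 (0.56, 0.57 and 0.59), and that of Gatad2b did not pass without 0 h replicate 2 (0.63). With the GC trend removed, Iffo2 no longer passed (0.41, adjusted p = 0.085 from limma) and Sin3a did (0.71, adjusted p = 0.0186 from limma). With quantile normalization none of the 4 passed.

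The largest relative rise at 18 h was on chromosome Y downstream of G530011O06Rik (90740998 to 90741762), and regions of that chromosome can have near-identical copies, so its reads may be shared. Its values were 295 and 277 without RA, 347 and 665 by 18 h, 110 and 165 by 48 h, and 731 and 112 by 120 h. The 18 h libraries lay above both 0 h libraries, and the 120 h libraries lay far apart. The relative log2 change at 18 h was 2.01 (SE 0.46, adjusted p = 0.048 from limma). The call was lost without 0 h replicate 2 (1.83), 18 h replicate 1 (2.30), 18 h replicate 2 (1.71) or either 48 h library (2.01), and with the GC trend removed (2.01, adjusted p = 0.053 from limma).

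The next was a tandem repeat without an assigned gene on chromosome 10 (80470982 to 80471820), with 68 and 103 without RA, 101 and 146 by 18 h, 77 and 145 by 48 h, and 339 and 166 by 120 h. It rose by 1.80 at 18 h (SE 0.25, adjusted p = 0.00178 from limma) and by 2.39 at 120 h (SE 0.25, adjusted p = 5.52e-05 from limma), and without further scaling the changes were 0.54 (adjusted p = 0.154 from limma) and 1.5.

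The other 3 named relative rises at 18 h kept values close to those of 0 h while most regions fell. In an intron of Srcin1 (chromosome 11, 97546100 to 97546622), an inhibitor of Src kinase, the values were 60 and 82 without RA, 59 and 71 by 18 h, 53 and 80 by 48 h, and 68 and 59 by 120 h. In the table's 8430427H17Rik (chromosome 2, 153492605 to 153493514), 21 bp from the GENCODE start of 4930404H24Rik, they were 94 and 121, 99 and 95, 68 and 117, and 116 and 81. Downstream of the ubiquitin gene Ubb (chromosome 11, 62560465 to 62561019) they were 71 and 84, 57 and 63, 42 and 58, and 73 and 56. Their relative log2 changes were 1.14 (SE 0.22, adjusted p = 0.0186), 1.12 (SE 0.23, adjusted p = 0.0274) and 0.89 (SE 0.20, adjusted p = 0.0473) from limma. These calls rested on single libraries: Srcin1 did not pass without 0 h replicate 1 (1.05), 18 h replicate 1 (1.10) or 18 h replicate 2 (1.18), 8430427H17Rik without 0 h replicate 1 (1.07), 0 h replicate 2 (1.17) or 18 h replicate 1 (0.92), and Ubb without any 1 library of 0, 18 or 48 h (0.79 to 1.00). With quantile normalization none of the 3 passed (0.85, 1.07 and 0.65).

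By 120 h the tandem repeat on chromosome 10 had the largest relative rise. The next was a minisatellite-like window in an intron of Cdc14a (chromosome 3, 116346954 to 116348014), a phosphatase of the cell cycle, with values of 95 and 89 without RA, 48 and 39 by 18 h, 34 and 45 by 48 h, and 199 and 157 by 120 h. It fell, then exceeded 0 h in both libraries. The relative log2 change at 120 h was 1.83 (SE 0.25, adjusted p = 2.79e-04 from limma), and 0.94 without further scaling. In an intron of Zmynd11 (chromosome 13, 9763128 to 9764322), a reader of a histone mark of transcribed genes, the values were 207 and 272, 93 and 134, 106 and 197, and 524 and 356. Its relative change was 1.75 (SE 0.23, adjusted p = 2.41e-04 from limma).

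The Pura region (chromosome 18, 36286206 to 36288017), in an intron of a gene for a protein that binds single-stranded nucleic acid, had 141 and 205 without RA, 78 and 130 by 18 h, 131 and 117 by 48 h, and 337 and 265 by 120 h. The region downstream of the table's Dnajb5 start (chromosome 4, 42949491 to 42950657), 5 bp from another GENCODE start of this heat shock co-chaperone, had 228 and 300 without RA, 139 and 180 by 18 h, 150 and 168 by 48 h, and 491 and 364 by 120 h. For both the 120 h libraries lay above the 0 h libraries, with relative log2 changes of 1.70 (SE 0.23, adjusted p = 3.04e-04) and 1.58 (SE 0.20, adjusted p = 1.62e-04) from limma. Without further scaling their changes of 0.81 and 0.69 did not pass (adjusted p = 0.0599 and 0.114 from limma).

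The 5 largest relative falls by 120 h were lower than 0 h in every later library. The region without an assigned gene on chromosome 6 (136470229 to 136470710) went from 195 and 358 without RA to 68 and 107 by 18 h, 62 and 67 by 48 h, and 50 and 45 by 120 h. That on chromosome 1 (34929588 to 34930977) went from 267 and 236 to 55 and 79, 57 and 64, and 64 and 32. The C130071C03Rik region (chromosome 13, 83744837 to 83745674), in the host transcript of the neural microRNA gene Mir9-2, went from 197 and 307 to 67 and 100, 60 and 76, and 56 and 36. Values at 120 h were the lowest of the 4 timepoints in mean in each of the 3.

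The fourth, assigned to Zfp329 in the table but in an intron of Zscan18 and 30 bp from its GENCODE start (chromosome 7, 12803037 to 12804078), went from 487 and 764 without RA to 178 and 196 by 18 h, 91 and 134 by 48 h, and 117 and 111 by 120 h. Zscan18 encodes a zinc finger protein. The Plcg2 region (chromosome 8, 117589258 to 117590318), in an intron of a phospholipase of blood cells, went from 364 and 383 to 131 and 154, 86 and 123, and 100 and 54. Relative log2 changes of the 5 at 120 h ranged from -1.59 (SE 0.25, adjusted p = 7.50e-04 from limma) on chromosome 6 to -1.45 (SE 0.21, adjusted p = 4.09e-04 from limma) at Plcg2. Without further scaling they ranged from -2.48 to -2.35.

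**Figure D5:**
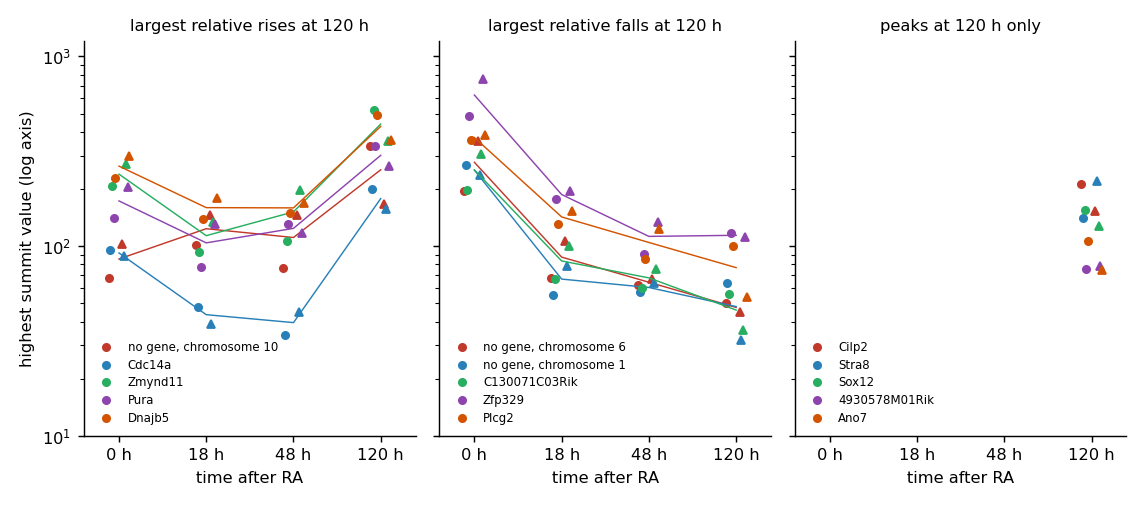
Highest summit value in each library (y axis, log scale) by time post-RA (x axis) for the 5 regions with the largest relative rise by 120 h, the 5 with the largest relative fall, and the 5 highest of those with peaks in both 120 h libraries and in no earlier library. Circles are replicate 1, triangles replicate 2 and lines join the means. The rises reach 157 to 524 at 120 h, the falls end between 32 and 117, and the 120 h only regions lie between 75 and 220 with no peak before.

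Of the 514 regions at 0 h only, without any later peak, the 5 highest lay at genes of varied kinds. The Akt1s1 region (chromosome 7, 44854340 to 44855033), in a coding exon of an inhibitor within the mTOR complex, had 205 and 186 without RA. The Gm15417 region (chromosome 3, 89396415 to 89396767, intron) had 180 and 232, and the Hmg20b region (chromosome 10, 81346629 to 81347079, coding exon) had 159 and 197. In a coding exon of Cyp26c1 (chromosome 19, 37690747 to 37691128), an enzyme that breaks down RA, the values were 159 and 170. Between 2310015A10Rik and Zfp36l1 (chromosome 12, 80114239 to 80114583), the latter a factor of mRNA decay, they were 141 and 137. None had a peak in a later library, so their later signal is below the calling limit and no fold is given. The lowest summit value of any library was 24 or 25.

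Earlier libraries held no peak at all in 17 of the 48 regions of 120 h only. The highest by the lower of both libraries was in an intron of Cilp2 (chromosome 8, 69883402 to 69883960), with 213 and 153. The region in Stra8 (chromosome 6, 34921766 to 34922348), the RA-induced gatekeeper of meiotic entry, lay 1120 bp inside the gene in an intron. It had 141 and 220, and its window, shown above, was of tandem repeats. These values are of this region and not of the whole gene. The study found open chromatin within and around the gene at every time it sampled, also before RA. A coding exon of the transcription factor Sox12 (chromosome 2, 152396761 to 152397045) had 155 and 127. Next to it, another Sox12 island region (152396180 to 152396677) had a peak in all 8 libraries. Its values were 265 and 476 without RA, 166 and 227 by 18 h, 150 and 224 by 48 h, and 450 and 355 by 120 h. The 120 h only region thus lay beside a site that was open throughout. An exon of 4930578M01Rik (chromosome 15, 98992985 to 98993331) had 76 and 79, and an intron of Ano7 (chromosome 1, 93400861 to 93401291), which encodes a membrane protein of the anoctamin family, had 107 and 75.

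Gene groups were followed through the regions assigned to them. The list of developmental transcription factors outside the Hox clusters, taken by the start of the gene symbol, held 206 genes, and 137 of these had 223 island regions, 5.47% of the 4074. The symbols also took in 18 genes of other kinds, such as the receptor gene Tbxa2r, the membrane protein gene Islr2 and the non-coding transcripts Sox2ot and Six3os1. Without these 18, 124 genes had 214 regions, of which 134 were counted without RA, then 39, 46 and 74. Of the 223, 141 were counted without RA, then 40, 47 and 76. Of the 141, 27.7% were also counted at 18 h (45.4% of all the island regions and 39.9% of all regions) and 47.5% at 120 h (52.2% and 34.3%). Among the 48 island regions at 120 h only, 8 were of this list. They lay at Nkx2-1, a factor of lung and thyroid, Foxa1, a factor of endoderm, Sox12, Foxd3 (2 regions), a factor of neural crest, Foxc2, Zic4 and Foxl2, a factor of the ovary. Of the 8, 7 were in coding exons, as were 20 of the 48 and 67 of the 1526 of all regions at 120 h only. Coding exons held 26.6% of all the island regions and 5.64% of all regions. At Foxd3 1 region (chromosome 4, 99657207 to 99657626) had 79 and 75 by 120 h and no peak before, whereas at Foxc2 (chromosome 8, 121117170 to 121117614) the values of 67 and 58 by 120 h were preceded by 92 in 0 h replicate 2 and 58 in 48 h replicate 2. At the other Foxd3 region 66 and 61 by 120 h were preceded by 89 in 0 h replicate 2. At Nkx2-1 85 and 68 were preceded by 90 in 0 h replicate 2 and 48 in 18 h replicate 2. At Foxa1 76 and 54 were preceded by 46 in 48 h replicate 1. The Sox12 region lay beside another island region of the gene that had a peak in all 8 libraries. These 7 genes were named after their values were seen.

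In 29 regions of this list, all 8 libraries had a peak. At 18 h 29 of 29 were lower than 0 h by limma, beside 92.3% of all regions, and at 120 h 16 of 29, beside 44.8%. Relative to the median region 6 were lower and 6 higher at 120 h, beside 15.8% and 23%. These counts are close to the background. The Foxo3 region, 1018 bp upstream of the gene for a forkhead factor (chromosome 10, 42277467 to 42278663), had 742 and 862 without RA, 263 and 404 by 18 h, 242 and 308 by 48 h, and 791 and 553 by 120 h. It returned to near its 0 h values, a relative log2 change of 0.62 (SE 0.20, adjusted p = 0.0266 from limma) that did not pass without 0 h replicate 1 (0.64), 0 h replicate 2 (0.59) or 120 h replicate 2 (0.55). Nor did it pass with the GC trend removed (0.44, adjusted p = 0.0645 from limma) or quantile normalization (0.07). The Foxj2 region (chromosome 6, 122810594 to 122811619), upstream of a forkhead gene, had 731 and 768, 218 and 350, 209 and 240, and 558 and 434. In Pax5 (chromosome 4, 44704233 to 44704867), a factor of B cells, the values were 624 and 720, 215 and 312, 178 and 234, and 553 and 323.

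Hox genes, which set position along the body axis, had 29 island regions at 29 of their 39 genes. Of these, 16 were counted without RA, then 3, 5 and 11, and 9 of the 16 were counted at 120 h (56.3%, beside 52.2% of all the island regions and 34.3% of all regions) and 3 at 18 h (18.8%, beside 45.4% and 39.9%). The share at 120 h is near that of the island regions. The Hoxa3 region (chromosome 6, 52172374 to 52172897) had a peak in all 8 libraries, with 125 and 255 without RA, 85 and 122 by 18 h, 51 and 81 by 48 h, and 194 and 139 by 120 h. Relative to the median region it rose by 0.77 at 120 h (SE 0.26, adjusted p = 0.0301 from limma), but not past the threshold without 0 h replicate 1 (0.39), 120 h replicate 1 (0.85), 120 h replicate 2 (0.69) or with quantile normalization (0.72). The region 3 bp from a GENCODE start of Hoxa7 (chromosome 6, 52221538 to 52222075) had 125 and 178, 61 and 54, 58 and no peak, and 94 and 76. The Hoxc11 region (chromosome 15, 102955778 to 102956491) had 99 and 132, no peak and 57, 50 and 69, and 130 and 59. In a coding exon of Hoxd11 (chromosome 2, 74682008 to 74682578), 65 and 72 without RA were followed by no peak at 18 and 48 h and by 63 and 61 in the 120 h libraries, a region also named after its values were seen.

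Imprinted genes, expressed from 1 parental allele, had 23 island regions at 16 of the 65 genes of the list. Without RA 15 were counted, then 8, 9 and 11. Of the 15, 46.7%, 53.3% and 66.7% were also counted at 18, 48 and 120 h. For all the island regions these shares were 45.4%, 48.5% and 52.2%, and for all regions 39.9%, 36.8% and 34.3%. The 5 with a peak in all 8 libraries lay at Grb10, H13, Herc3, Inpp5f and Cdh15, all 5 lower at 18 h by limma, beside 92.3% of all regions, the median being -1.58 on the log2 scale (-1.25 for all 1148). At 120 h 3 of the 5 were lower, beside 44.8%, so both counts are near the background. None of the 5 passed the limma threshold relative to the median region, in a small set. The Cdh15 region (chromosome 8, 122864353 to 122865293), in an intron of a cadherin gene, had 334 and 267 without RA, 120 and 145 by 18 h, 92 and 89 by 48 h, and 152 and 115 by 120 h. The H13 region (chromosome 2, 152707468 to 152708197), 38315 bp inside a gene for an intramembrane protease, had 214 and 312, 62 and 100, 77 and 82, and 216 and 164. The Inpp5f region (chromosome 7, 128687785 to 128688664), 40 bp from an internal GENCODE start of this phosphatase gene, had 240 and 306, 75 and 110, 77 and 88, and 192 and 137. All 3 had their lowest values at 18 or 48 h.

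Genes known from spermatogonia had 28 island regions at 17 of 46 genes, of which 18 were counted without RA, then 9, 9 and 8. Of the 18, 50%, 50% and 38.9% were also counted at 18, 48 and 120 h. For all the island regions these shares were 45.4%, 48.5% and 52.2%, and for all regions 39.9%, 36.8% and 34.3%. The list holds genes the study picked from its own transcript data. In 5 regions all 8 libraries had a peak, at Ptch1, Ccnd1, Dmrt1 and Bmi1 (2 regions). At 120 h and relative to the median region, 1 of the 5 was lower by limma, at the Hedgehog receptor gene Ptch1, and 1 was higher, at the Polycomb gene Bmi1. The Ptch1 region lay 21 bp from the GENCODE start of A930032L01Rik and was 1 of 4 island regions of the gene. The Ccnd1 region (chromosome 7, 144941278 to 144941865), upstream of a cyclin of the G1 phase, had 314 and 399 without RA, 135 and 212 by 18 h, 158 and 161 by 48 h, and 340 and 186 by 120 h. Between Dmrt1, a regulator of the mitosis to meiosis switch, and Dmrt3 (chromosome 19, 25605678 to 25606490) the values were 256 and 340, 117 and 128, 94 and 120, and 260 and 158. Both overlapped their 0 h values at 120 h.

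Retinoid genes had 11 island regions at 7 of 23 genes, of which 8 were counted without RA, then 1, 2 and 4. Of the 8, a small set, 12.5%, 25% and 50% were also counted at 18, 48 and 120 h. For all the island regions these shares were 45.4%, 48.5% and 52.2%, and for all regions 39.9%, 36.8% and 34.3%. The region in Rarg (chromosome 15, 102246303 to 102247294), an RA receptor, lay 10411 bp inside the gene and 3 bp from an internal GENCODE start, and was the 1 with a peak in all 8 libraries. Its values were 292 and 371 without RA, 152 and 162 by 18 h, 92 and 116 by 48 h, and 159 and 114 by 120 h. Each later library lay below both 0 h libraries. Of the 5 island regions in Cyp26c1 and Cyp26b1, enzymes that break down RA, all 5 were counted without RA, 0 by 18 h and 3 by 120 h. They were set apart from the list after their values were seen. The shares to set beside them are those above. The Cyp26b1 region (chromosome 6, 84583354 to 84584372) had 91 and 113 without RA, no peak and 60 by 18 h, no peak and 55 by 48 h, and 103 and 74 by 120 h. The Cyp26c1 region from 37692890 to 37693378 on chromosome 19 had 122 and 150, no peak and 54, no peak and 55, and 70 and 51.

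Genes of DNA methylation and CpG binding had 10 island regions at 7 of 35 genes, and 5 of the 7 counted at 0 h were also counted at 18, 48 and 120 h. For all the island regions these shares were 45.4%, 48.5% and 52.2%, and for all regions 39.9%, 36.8% and 34.3%. The 5, of a small set, lay at Dnmt1, Dnmt3a, Tet1, Zfp57 and Kdm2b, each 113 bp or less from a GENCODE start. Of all regions within 1000 bp of such a start, 60.8% of those counted at 0 h were also counted at 120 h. None of the 5 passed the threshold at 120 h relative to the median region. The Dnmt1 region (chromosome 9, 20952142 to 20953210), at the gene for the maintenance methyltransferase, had 445 and 583 without RA, 336 and 361 by 18 h, 214 and 321 by 48 h, and 466 and 282 by 120 h. The Kdm2b region (chromosome 5, 122899935 to 122901053), inside the gene for a protein that binds unmethylated CpGs, had 233 and 326, 86 and 132, 78 and 93, and 154 and 190. In Dnmt3a (chromosome 12, 3891133 to 3892440), a de novo methyltransferase, the values were 147 and 153, 54 and 67, 47 and 64, and 73 and 75. The Dnmt1 region was the 1 of the 3 whose 120 h values overlapped those of 0 h.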

How the data were processed

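The authors aligned ATAC-seq reads to mm10 with BWA 0.7.12, removed duplicates and mitochondrial tags, reduced all libraries to 1 number of tags and called peaks per library with MACS2 2.1.0. The deposited table gives, per peak, the signal (tag coverage) at the summit and its mean, assigned genes, distances and CpG islands. How islands were assigned is not given in the sources used here. The members and lists were chosen with earlier results of these data known.

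Peaks were merged across libraries (1 bp) and read as deposited. A timepoint was counted where both libraries had a peak. The heights went into a limma 3.58.1 fit under R 4.3.3 (4 groups, no block, Benjamini-Hochberg over 15536 regions, threshold 0.05). Shares were compared by exact permutation in Python 3.11.15. The merging and the fit were tested on simulated data. Windows of 200 bases came from the RefSeq GRCm38 genome and features and transcript starts from GENCODE M21. The repeated 12-letter words were counted after the windows had been seen. Since only 2 mice stand behind each timepoint, p-values measure the spread between these libraries. Without further scaling, each named region with fitted heights had the same SE, 0.3716, in each contrast listed for it. On that scale the limma p follows the size of the change and not the spread of a region's own values.

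Named were the 5 regions with the highest minimum over the libraries, up to 5 largest relative rises and falls past the threshold at 18 h and at 120 h, the 5 highest with peaks at 0 h only and at 120 h only, and up to 3 per gene list with a peak in the most libraries, then the highest mean. Sequences are of the first 2 of each kind whose window held no UTR, outside chromosome 18. Alternatives were other scalings, a GC trend, mean signal, an intensity trend, a replicate block, fewer libraries, other peak thresholds, a limit of 3000 bp, islands in every peak and GENCODE starts.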

Additional observations from a re-analysis of the deposited data

Results flagged for a closer look

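For 13 named regions the change from 0 h, relative to the median region, differed between 48 h and 120 h by limma, which tests the difference between those timepoints itself (adjusted p under 0.05). It was higher at 120 h for Cdc14a, with a log2 difference of 1.67, Zmynd11 (1.08), Dnajb5 (0.91), Hoxa3 (0.85), Foxo3 (0.77), Pura (0.77), H13 (0.74) and Clec11a (0.70). It was lower for the region on chromosome 19 among the 5 highest (-0.86), the region on chromosome 1 (-0.92), the region on chromosome 6 without a gene (-0.94), Plcg2 (-0.99) and C130071C03Rik (-1.09). None of these calls held without 48 h replicate 2, where 0 island regions were lower and 0 higher in this comparison. Without 48 h replicate 1, 8 were lower and 5 higher among all 1148, and without 120 h replicate 2, 11 and 3, against 69 and 79 with all libraries. Quantile normalization left 4 and 2. The adjusted p from limma ranged from 0.00594 at Cdc14a to 0.0427 at Clec11a. Regions of Cdc14a, Zmynd11, Pura, Dnajb5, Plcg2 and C130071C03Rik and those on chromosomes 1 and 6 had been named for their change at 120 h, so a difference there follows in part from the choice. Groups of 2 libraries were too small for a search for libraries that stand apart.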

How the results depend on the processing

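The difference in the share of peaks kept its direction under the alternatives run, whereas many counts moved. Changes in regions that lost their peak could not be measured, and with 1 tag number per library and peaks called in each, low regions near the calling limit cannot be told from closed ones. The cause was not tested for any move below, except that the rule on gene starts and the centring act by construction. Of the alternatives, the basic GENCODE starts, the equal numbers of peaks within height classes, the mean signal, the intensity trend, the fits of 2 timepoints, the trimmed list of developmental genes and the centred fits without a library were chosen after seeing the data.

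Without further scaling or relative to the median region, the lower and higher counts were, in turn, 1085 and 1, then 0 and 6 at 18 h against 0 h, 1092 and 0, then 13 and 26 at 48 h, and 576 and 3, then 158 and 175 at 120 h. They were 1 and 0, then 0 and 0 from 18 h to 48 h, and 0 and 207, then 69 and 79 from 48 h to 120 h. Quantile normalization gave 0 lower at 18 h, 15 lower and 14 higher at 48 h, 99 lower and 65 higher at 120 h, 0 lower from 18 h to 48 h, and 4 lower and 2 higher from 48 h to 120 h. With the GC trend removed, 4 were lower and 13 higher at 18 h, 20 lower at 48 h, 255 lower at 120 h and 184 lower from 48 h to 120 h. The mean signal of the peak gave 3 lower at 18 h. The intensity trend gave 3 lower at 18 h, 1 higher from 18 h to 48 h and 143 higher from 48 h to 120 h. With the libraries of the 2 timepoints alone, 8 were lower relative to the median region at 48 h, 1 higher at 120 h without scaling, 1 higher without scaling and 1 lower and 1 higher relative from 18 h to 48 h, and 81 higher from 48 h to 120 h. A further 92 values of counts and shares, 38 of heights and 37 of relative heights moved by less than 1.5 times or by less than the spread. Of single regions, 117 values kept their side of the threshold, 20 lost it and 6 gained it.

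Replicate numbers in the labels could not be taken to pair the libraries: the correlation of deviations from the timepoint means between libraries of 1 number was 0.18 for 0 and 18 h, 0.09 for 0 and 48 h, 0.25 for 0 and 120 h, -0.14 for 18 and 48 h, 0.23 for 18 and 120 h and -0.22 for 48 and 120 h. With a replicate block, 1066 were lower and 0 higher at 18 h, 1080 lower at 48 h, 519 lower at 120 h, 0 lower from 18 h to 48 h and 145 higher from 48 h to 120 h. With the block and centring, 1 was lower at 18 h, and 160 were lower and 187 higher at 120 h.

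Without further scaling the relative rises at 120 h turned to -0.19 for Clec11a, -0.35 for Sin3a, -0.28 for Gatad2b, -0.20 for Iffo2, -0.12 for Hoxa3 and -0.27 for Foxo3, and those at 18 h to -0.12 for Srcin1, -0.14 for 8430427H17Rik and -0.37 for Ubb. Quantile normalization turned Sin3a (-0.092) and Gatad2b (-0.0033).

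With an equal number of the highest peaks per library, 1432 regions were counted at 0 h, 135 at 0 h only, 157 at 120 h only and 71 at 0 and 120 h only. Of those at 0 h, 76.8%, 79.9% and 78.1% were then counted at 18, 48 and 120 h, and in the highest class 99.4% at 18 h and 97.6% at 120 h. With a peak in either library, 2326 were counted at 18 h, 2671 at 120 h and 80 at 120 h only, and the shares were 58.6%, 59.6% and 65.8%. A summit value of at least 50 gave 39.1% at 48 h, and no gene start within 3000 bp gave 31 regions at 120 h only. Without regions near a GENCODE start, 1676, 652, 688 and 773 were counted at 0, 18, 48 and 120 h, 739 at 0 h only, 125 at 0 and 120 h only, 449 had a peak in all libraries, and the share at 48 h was 40.9%. With basic GENCODE starts these were 2109, 858, 911 and 1016, then 161 at 0 and 120 h only, 610 in all libraries and 43.1%. The difference in the share of peaks, 1.78 points, had an exact permutation p of 0.0357, n = 2 against 6, by absolute difference.

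Leaving out 1 library at a time, with a lone library assumed to vary like the others, gave at 18 h against 0 h 541 to 1114 lower and 0 to 1 higher (relative 0 to 1 and 1 to 7). At 48 h the relative counts were 0 to 14 lower and 5 to 26 higher. At 120 h, 230 to 750 were lower and 1 to 6 higher (relative 95 to 152 and 47 to 182). From 18 h to 48 h, 0 to 1 were lower and 0 to 1 higher. From 48 h to 120 h, 0 to 2 were lower and 1 to 505 higher (relative 0 to 76 and 0 to 79). Counts ran from 789 to 1601 at 0 h only, 27 to 163 at 120 h only and 138 to 690 at 0 and 120 h only. Shares ran from 40.5% to 64.3% at 18 h, 43.2% to 62.2% at 48 h and 47.0% to 73.0% at 120 h. For regions without an island away from starts they ran from 23.3% to 41.6%, 19.3% to 38.7% and 16.4% to 42.0%. In the highest class they ran from 75.5% to 95.0% at 18 h and 78.5% to 95.6% at 120 h, and for regions without an island away from starts from 70.4% to 91.7% and 46.1% to 86.4%.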
